A study of Mus musculus with 98 samples.

Results

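The regions described here are the m6A sites of the transcriptome that kept a called peak in every m6A library of mouse TBLC, totipotent blastomere-like cells, in 3 culture states. Peaks of the 6 deposited lists were merged on the same strand wherever they overlapped by at least 1 base, and a merged region was taken as shared when it held a peak of every list. Members were thus chosen by the presence of a called peak in each library, and the scores themselves were not used beyond the authors' own threshold for a peak. By this rule 4033 of 21050 merged regions (19.2%) were shared. They held 26476 of the 64974 peaks and covered 2.50 of 7.24 Mb. Positions are in build mm39, with the strand of the peak in brackets.

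N6-methyladenosine (m6A) is a methyl mark on adenosines inside mRNA and other transcripts. METTL3 and METTL14 write it as a complex with adaptors such as WTAP and VIRMA, mostly within a short motif known as DRACH, and often near stop codons and in long exons. Proteins with a YTH domain read the mark and can shorten the life of a transcript, whereas IGF2BP proteins can lengthen it. PlaB is pladienolide B, a splicing inhibitor that is used to bring mouse embryonic stem cells into the TBLC state and to hold them there.

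The series asked how transcriptomes and RNA stability differ between states of TBLC. Of its 98 samples, the 6 libraries used here are immunoprecipitations of total RNA with an anti-m6A antibody from New England Biolabs, 2 replicates per state. TBLC_Ctrl is TBLC kept in 2MYCP medium, TBLC_PlaB- is TBLC moved to SLM for 8 hours, and diffTBLC is TBLC kept in SLM for 3 days. The group name TBLC_PlaB- marks PlaB as absent, and the labels do not say whether its loss is part of the change of medium. Loss of PlaB, the medium and the time in it cannot be told apart here. Beyond this the labels name no other treatment or allele for these libraries. Nothing in them says that the replicates came from separate cultures. A p-value here thus sets a difference against the scatter of these libraries only, and that scatter may be technical. The labels describe no sorting of diffTBLC, so its values are those of whatever mixture of cells the culture held. The matching input libraries were not analysed here, and a higher score may follow from more methylation or from more transcript, which cannot be told apart in these lists. The lists name no genes, so regions are named by position.

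The lists were of like length, from 10143 peaks in TBLC_PlaB- replicate 1 to 12297 in diffTBLC replicate 1. Shared regions took between 35.9% of a library's peaks (diffTBLC replicate 1) and 43.9% (TBLC_PlaB- replicate 1). Of all merged regions, 6688 were found in 1 list only and 4671 in 2 lists, compared with 1466 to 2177 for each of 3, 4 and 5 lists and 4033 for all 6. The list most often missing from a region of the other 5 was a diffTBLC list, with 335 regions lacking only its replicate 1 and 372 lacking only its replicate 2, against 156 to 232 for each TBLC list. The remaining patterns included 2586 regions of both diffTBLC lists and no other, and 2421 of both TBLC_Ctrl lists and no diffTBLC list.

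Shared regions were wide and high compared with the rest, which is given as a description, because a region joined from 6 lists is wider by construction and a high peak is more easily called 6 times. Their median width was 545 bases (quartiles 386 and 761) against 267 over all merged regions. Median width rose with the number of lists from 169 bases in 1 list to 395 in 5. The median score was 110, 144, 129, 152 and 156 in regions of 1 to 5 lists, with no steady order, and 229 in the shared regions. The score is the authors' whole number per peak, on a scale that is not stated, and its lowest value was 20 in every list. In 3154 shared regions (78.2%) each library had exactly 1 peak, and in the other 879 at least 1 library had several. The strands were used alike, with 2033 regions on the plus and 2000 on the minus strand. Chromosome 11 held the most shared regions (350) and chromosome Y the fewest (5), and their share of all merged regions ran from 3.65% on Y and 13.8% on X to 21.9% on 11.

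Raw scores in shared regions were lower in diffTBLC than in either TBLC state. The median over the 4033 regions, taking each library's highest peak in a region, was 278 and 258 in TBLC_Ctrl, 264 and 261 in TBLC_PlaB-, and 186 and 173 in diffTBLC (replicates 1 and 2). The 4 TBLC libraries lay close together, and both diffTBLC libraries lay below all of them without overlap. Per region, the state mean was lower in diffTBLC than in TBLC_Ctrl in 72.2% of regions, with a median log2 difference of -0.60 (0.660-fold). Against TBLC_PlaB- the median was -0.57, and between TBLC_PlaB- and TBLC_Ctrl it was -0.03. The library medians had a replicate SD of 0.0616 on the log2 scale, and an exact two-sided permutation test of 2 against 2 libraries gave p = 0.333 for both diffTBLC comparisons, the smallest it can give, and p = 1.0 for TBLC_PlaB- against TBLC_Ctrl. Over all peaks of a list the medians were 153 and 143 in diffTBLC and 169 to 183 in the TBLC libraries.

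**Figure D1:**
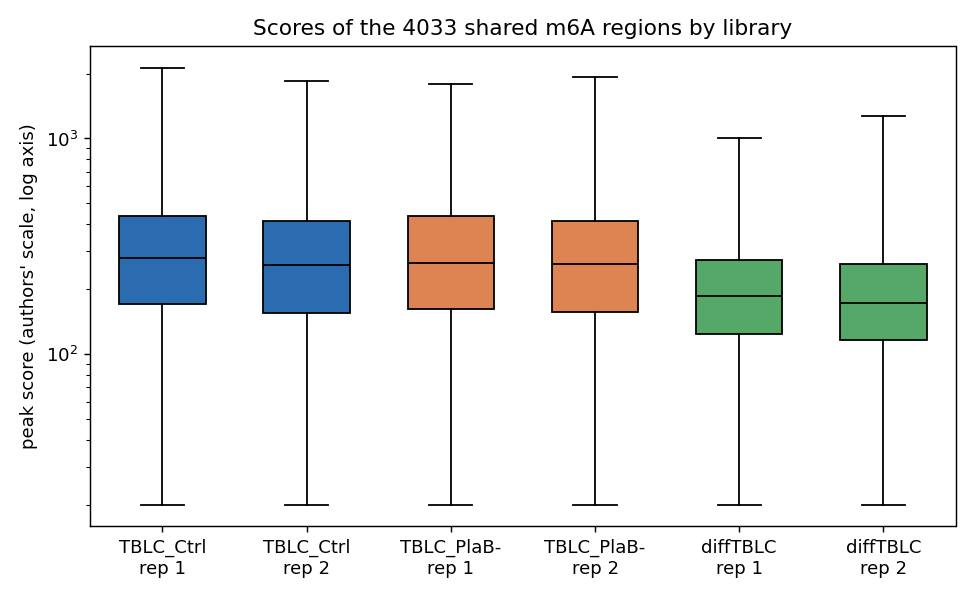
Scores of the 4033 shared regions in each of the 6 m6A libraries (highest peak of the library in the region, authors' scale, log axis). Boxes span the quartiles with the median as a line, and whiskers run from the lowest to the highest score. The 4 TBLC medians lie between 258 and 278 and the diffTBLC medians at 186 and 173.

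The highest peaks of diffTBLC lay less in shared regions. Of the 500 highest peaks of each TBLC list, 72.0% to 78.0% fell in shared regions, compared with 28.2% and 45.2% in diffTBLC replicates 1 and 2. Regions of both diffTBLC lists and no other held 53.0% and 38.4% of the 500 highest diffTBLC peaks.

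Scores within a shared region varied over the libraries. Within a shared region the highest of the 6 scores was a median 3.31 times the lowest (quartiles 2.42 and 4.84), and in 1442 regions it was at least 4 times the lowest. Only 486 regions kept all 6 scores within 2-fold. In 2420 regions (60.0%) every score was at least 100, whereas 470 regions had a lowest score under 50. At the edge of the rule lay chr10:77323777-77324444(-), chr10:78240909-78241169(-), which overlaps a region of the other strand, and chr12:109627045-109627465(+), each with a lowest score of 20. Just outside it lay chr13:66907375-66907644(+), which had scores of 443 to 806 in 5 libraries and no peak in TBLC_Ctrl replicate 2. Likewise chr8:127676026-127676384(-) lacked a peak in diffTBLC replicate 2 alone, with 394 to 1294 in the other libraries, and chr4:126453681-126454098(+) lacked a peak in TBLC_Ctrl replicate 2 alone, with 363 to 838.

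The order of the regions by score was kept between replicates and between the TBLC states, and was largely different in diffTBLC. Spearman's rho over the 4033 regions was 0.70 to 0.71 between replicates, 0.65 to 0.68 between a TBLC_Ctrl and a TBLC_PlaB- library, 0.29 to 0.35 between a diffTBLC and a TBLC_Ctrl library, and 0.33 to 0.38 between a diffTBLC and a TBLC_PlaB- library. These correlations are across regions, whose libraries share transcript levels and sequence, and are given as a description. Of the 403 highest regions of a library, the top 10%, replicates had 56.8% to 64.8% in common and TBLC_Ctrl and TBLC_PlaB- libraries 59.3% to 64.0%. A diffTBLC library had 21.3% to 27.5% in common with a TBLC_Ctrl library. The spread between replicates was wide, with an SD on the log2 scale of 0.58 in TBLC_Ctrl, 0.60 in TBLC_PlaB- and 0.49 in diffTBLC. Replicates differed by more than 4-fold in 116, 147 and 54 regions of these states.

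The regions with the highest mean score over the libraries include some that were level across states and some that were not. At chr3:123059260-123059567(+) the scores were 1154 and 1018 in TBLC_Ctrl, 1167 and 1270 in TBLC_PlaB-, and 810 and 780 in diffTBLC. Relative to each library's median, this region was among the steadiest of all, with an SD of 0.10 on the log2 scale over the 6 libraries. The highest mean was at chr10:120066989-120067415(+), with 1643 and 1824 in TBLC_Ctrl, 1378 and 1739 in TBLC_PlaB-, and 393 and 467 in diffTBLC. Both diffTBLC libraries lay far below the other 4 there. At chrX:94470741-94471198(-) the TBLC scores ran from 1354 to 1791, and diffTBLC had 364 and 580. At chr14:21720118-21721250(+), where a region of the other strand overlaps, the TBLC scores ran from 1257 to 1678, and diffTBLC had 494 and 372.

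Of the regions with the smallest spread, chr7:19458114-19458833(-), which overlaps a region of the other strand, had 555 and 459 in TBLC_Ctrl, 492 and 518 in TBLC_PlaB-, and 347 and 340 in diffTBLC. After centring these differed by an SD of 0.07 on the log2 scale. At chr16:94492393-94493404(+) the scores were 409, 359, 412, 400, 256 and 243 in the same order, and at chr19:5506601-5507551(-) they were 978, 995, 919, 870, 623 and 583. In each of the 4 steadiest regions the raw diffTBLC scores were the lowest. This follows from their choice by centred scores, because the diffTBLC library medians were lower.

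To compare states region by region, log2 scores were centred on each library's median over the shared regions and tested with limma, a linear model with moderated variance, over every merged region with a peak in both replicates of both states. P-values were adjusted by the Benjamini-Hochberg method over all regions tested, and a region was called at an adjusted p under 0.05. A shift common to all regions is removed by the centring, so a rise or fall below is relative to the median shared region. Having a score in every library also bounds how far a shared region can fall.

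Between TBLC_PlaB- and TBLC_Ctrl, which are 8 hours apart in culture, 3 of the 4033 shared regions passed (2 rose and 1 fell), compared with 3 of 6014 tested in all (0.0499%, of which 0.0333% rose and 0.0166% fell). Without adjustment 377 shared regions (9.35%) had p under 0.05 by limma. This count includes regions that would pass without any change, and the share over all regions tested is not given here, so it is no count of changes. Both replicates of a state lay above both of the other in 763 regions for TBLC_PlaB- and 767 for TBLC_Ctrl, which are 18.9% and 19.0% of the shared regions, compared with 18.1% and 19.4% of all regions tested. Both shares are near those of all regions tested.

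The larger rise was at chr11:97637623-97638034(-). Its scores were 99 and 114 in TBLC_Ctrl, 926 and 892 in TBLC_PlaB-, and 337 and 242 in diffTBLC. The states did not overlap, and diffTBLC lay between the TBLC states. The log2 difference was 3.13 ± 0.37 (SE), 8.73-fold, with a limma adjusted p of 0.0043. This call was lost without TBLC_Ctrl replicate 1 or without either TBLC_PlaB- library (limma adjusted p = 0.056, 0.125 and 0.101). At chr13:16200795-16201354(+) the scores were 273 and 280 in TBLC_Ctrl, 1127 and 1069 in TBLC_PlaB-, and 220 and 223 in diffTBLC, so that TBLC_PlaB- stood apart from both other states. Its log2 difference was 2.02 ± 0.31, with a limma adjusted p of 0.043, and the adjusted p was above 0.05 when any single library was left out (0.051 to 0.316), without centring (0.072), with quantile normalisation (0.076) and with the sum of peak scores (0.080). Each of these regions overlaps a region called on the other strand, and what part the overlap has in their scores was not tested.

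The fall was at chr7:3460062-3460318(+). Scores there were 938 and 856 in TBLC_Ctrl, 133 and 145 in TBLC_PlaB-, and 543 and 450 in diffTBLC. TBLC_PlaB- was lowest without overlap, and the log2 difference from TBLC_Ctrl was -2.66 ± 0.31 with a limma adjusted p of 0.0043. It was lost without either TBLC_Ctrl library or without TBLC_PlaB- replicate 2 (limma adjusted p = 0.056, 0.062 and 0.062). The next regions by the test statistic did not pass. They were chr2:155834118-155834681(+), with 430 and 392 in TBLC_Ctrl and 1105 and 1301 in TBLC_PlaB- (limma adjusted p = 0.082), and chr8:73214015-73214324(+), with 693 and 753 against 79 and 190 (limma adjusted p = 0.103). The last of them, chr4:41011986-41012566(+), had 381 and 297 against 60 and 58 (limma adjusted p = 0.213). All 3 calls were lost in limma without its mean-variance trend (adjusted p of 0.181, 0.253 and 0.181 in the order above).

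After 3 days in SLM many more shared regions differed. Against TBLC_Ctrl, 491 shared regions passed (12.2%), of which 175 rose and 316 fell in diffTBLC, compared with 12.1% of the 4530 regions tested, most of which are the shared regions themselves. By direction, 4.72% of all tested regions rose and 7.35% fell, and of the shared regions 4.34% and 7.84%. Of the 497 tested regions that were not shared, 56 (11.3%) passed, 39 of them up (7.85%) and 17 down (3.42%). The total share of calls was thus near that of the other regions, whereas falls outnumbered rises in the shared regions and rises outnumbered falls in the others. This difference in balance was not tested, and the centring was on the shared regions. All of the others also lack a peak of a TBLC_PlaB- list. Their balance may thus follow from how the sets were made, and it is no trait of the shared regions. The median change was 2.07 among the regions that rose and -1.59 among those that fell. Both replicates of diffTBLC lay above both of TBLC_Ctrl in 1162 shared regions and below in 1257, which are 28.8% and 31.2%, compared with 30.3% and 29.7% of all regions tested. Without centring, 76 regions rose and 885 fell, so that the share of rises among called regions went from 35.6% to 7.91%. The number of calls and their balance also rested on single libraries. There were 204 calls (88 up and 116 down) without TBLC_Ctrl replicate 1 and 225 (114 up and 111 down) without TBLC_Ctrl replicate 2. Without diffTBLC replicate 1 there were 280 (62 up and 218 down), and without diffTBLC replicate 2 there were 322 (72 up and 250 down).

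**Figure D2:**
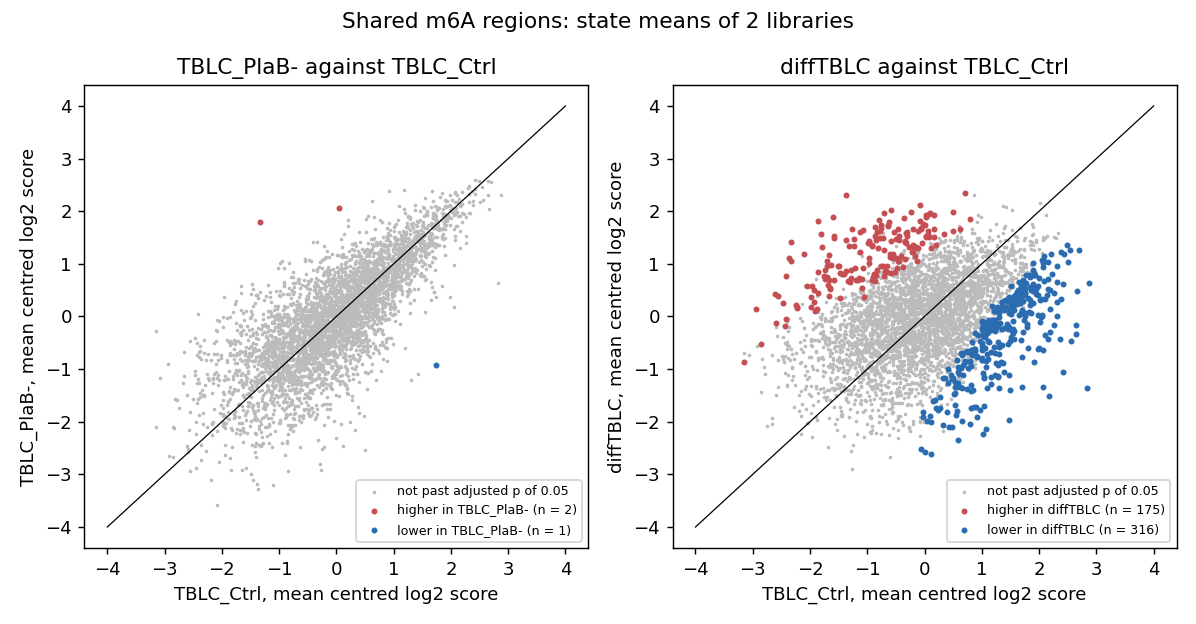
State means of 2 libraries for each of the 4033 shared regions, as centred log2 scores, for TBLC_PlaB- (left) and diffTBLC (right) against TBLC_Ctrl. The line marks equal scores and coloured points are regions past an adjusted p of 0.05 by limma: 2 higher and 1 lower in TBLC_PlaB-, 175 higher and 316 lower in diffTBLC.

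Regions that rose in diffTBLC were low in TBLC_Ctrl and nearer to the median shared region in TBLC_PlaB-. Their median centred log2 scores were -0.74 and -0.88 in TBLC_Ctrl, and -0.35 and -0.16 in TBLC_PlaB-. Over the 175 regions the median score was 167 and 140 in TBLC_Ctrl, 207 and 233 in TBLC_PlaB-, and 434 and 382 in diffTBLC. Over the 316 that fell it was 674.5 and 699.5 in TBLC_Ctrl, 664.5 and 601 in TBLC_PlaB-, and 157.5 and 145 in diffTBLC. These levels follow in part from how the regions were called. The TBLC_PlaB- means do not enter this difference, although their replicates share in the estimate of the spread and the regions all hold TBLC_PlaB- peaks. The TBLC_PlaB- mean was nearer to TBLC_Ctrl than to diffTBLC in 297 of the regions that fell (94.0%) and in 123 of those that rose (70.3%). Calls were more frequent among regions of high score: 65, 130 and 296 regions passed in the lowest, middle and highest of 3 equal classes by mean score. The median SE of the difference was 0.60, 0.47 and 0.35 in these classes, so smaller differences could pass at high scores. Falls made up 238 of the calls in the highest class and 20 of those in the lowest. The mean score was taken over all libraries, most of which are TBLC. A region high in TBLC and low in diffTBLC thus tends to enter a higher class than one that rose. This split therefore follows in part from how the classes were made.

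Regions named below as the largest changes were taken only from called regions whose centred scores do not overlap between the compared states. The largest such rise against TBLC_Ctrl was at chr19:60754665-60755312(+), which overlaps a region of the other strand. Its scores were 24 and 117 in TBLC_Ctrl, 76 and 114 in TBLC_PlaB-, and 635 and 362 in diffTBLC. Here diffTBLC lay above all TBLC libraries, and the TBLC_Ctrl replicates differed widely. The log2 difference was 3.76 ± 0.75 with a limma adjusted p of 0.0096, and without diffTBLC replicate 1 the adjusted p was 0.054. At chr7:34977933-34978461(-) the scores were 150 and 71, then 103 and 64, then 616 and 1268 in the same order of states. This was also the largest rise against TBLC_PlaB-, with log2 differences of 3.68 ± 0.55 and 3.99 ± 0.55 and limma adjusted p of 0.0032 and 0.0019. At chr10:43130141-43130469(+) the replicates were close, with 83 and 94 in TBLC_Ctrl, 129 and 114 in TBLC_PlaB-, and 743 and 601 in diffTBLC. Its log2 difference from TBLC_Ctrl was 3.50 ± 0.44 with a limma adjusted p of 0.0014.

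At chr17:86434017-86434490(-) the scores were 57 and 95 in TBLC_Ctrl, 106 and 233 in TBLC_PlaB-, and 529 and 745 in diffTBLC. Of the 6 largest rises, this region, chr10:43130141-43130469(+) and chr5:76710161-76710475(+) had both TBLC_PlaB- scores above both TBLC_Ctrl scores. The last of them had 89 and 65 in TBLC_Ctrl, 257 and 134 in TBLC_PlaB-, and 564 and 505 in diffTBLC. None of these regions passed for TBLC_PlaB- against TBLC_Ctrl (limma adjusted p = 0.63, 0.83 and 0.48 in the order named). They were chosen by their difference from TBLC_Ctrl, which favours low TBLC_Ctrl scores. Over all regions tested, TBLC_PlaB- lay above TBLC_Ctrl without overlap in 18.1%. At chr6:140569388-140569977(+), which overlaps a region of the other strand, the scores were 22 and 124, then 44 and 36, then 358 and 418. Its low TBLC_Ctrl replicate 1 sets much of the difference from TBLC_Ctrl, which was 3.47 in all and 2.17 without that library (limma adjusted p = 0.019 and 0.075). The call was also lost without either diffTBLC library (limma adjusted p = 0.054 and 0.082), as was that against TBLC_PlaB- (0.063 and 0.088).

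The largest fall against TBLC_Ctrl was at chr2:140006322-140006580(-), with 1963 and 1847 in TBLC_Ctrl, 86 and 1930 in TBLC_PlaB-, and 85 and 58 in diffTBLC. The TBLC_PlaB- replicates are not of 1 kind there: replicate 1 lay with diffTBLC and replicate 2 with TBLC_Ctrl. The log2 difference from TBLC_Ctrl was -4.18 ± 1.00 with a limma adjusted p of 0.023, and this call was lost without either TBLC_Ctrl library (adjusted p = 0.098 and 0.091) and in limma without the trend (0.079). The other large falls had high scores in all 4 TBLC libraries. At chr11:70284694-70285673(-), which overlaps a region of the other strand, they were 1234, 1175, 1250 and 1046 in the TBLC libraries, and 90 and 44 in diffTBLC. This was a 12.8-fold fall, with a log2 difference of -3.68 ± 0.35 and a limma adjusted p of 0.0005. At chr14:54902569-54903169(-) the TBLC scores ran from 1100 to 1570, and diffTBLC had 99 and 76. Its log2 difference was -3.46 ± 0.29, with a limma adjusted p of 0.0002.

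At the remaining 3 of the 6 largest falls diffTBLC was also below all TBLC libraries. Lack of overlap with TBLC_Ctrl was required for a region to be named, whereas lack of overlap with TBLC_PlaB- was not. At chrX:135634710-135635290(-), which overlaps a region of the other strand, the TBLC scores were 658, 851, 794 and 844, and diffTBLC had 44 and 48. At chr9:107460680-107461123(+) they were 1065, 1177, 638 and 898, and diffTBLC had 100 and 50. At chr11:72341612-72342067(+) they were 484, 609, 473 and 319, and diffTBLC had 34 and 43. Their log2 differences from TBLC_Ctrl were -3.45, -3.41 and -3.25.

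**Figure D3:**
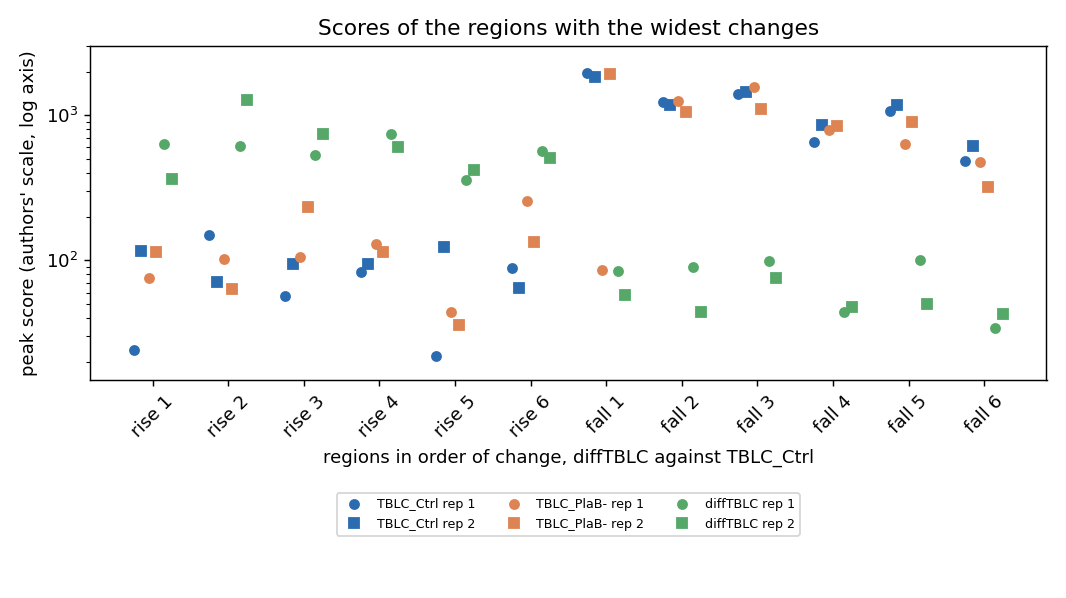
Scores (authors' scale, log axis) in each library at the 6 shared regions with the largest rise and the 6 with the largest fall in diffTBLC against TBLC_Ctrl, in order of change. Only called regions whose centred scores do not overlap between these states were ranked. Circles are replicate 1 and squares replicate 2. TBLC_PlaB- scores lie nearer to TBLC_Ctrl than to diffTBLC at most of them, and at the first fall (chr2:140006322-140006580) its replicates are split, 86 against 1930.

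Against TBLC_PlaB-, 451 shared regions passed (11.2%), 145 up and 306 down in diffTBLC, compared with 11.4% of the 4572 regions tested (4.4% up and 6.96% down). Of the 539 tested regions that were not shared, 68 passed (12.6%), 56 up and 12 down, so that here too the total share was near and the balance differed, untested. All of these 539 lack a peak of a TBLC_Ctrl list, so their balance may likewise follow from how the sets were made. The groups lay apart in 1099 shared regions upward and 1252 downward, which are 27.3% and 31.0%, compared with 29.5% and 29.1% of all regions tested. Without centring 66 rose and 851 fell, a share of rises of 7.20% in place of 32.2%. The calls numbered 251 (114 up and 137 down) without TBLC_PlaB- replicate 1 and 331 (132 up and 199 down) without TBLC_PlaB- replicate 2. Without diffTBLC replicate 1 they were 224 (27 up and 197 down), and without diffTBLC replicate 2 also 224 (19 up and 205 down), so most rises against TBLC_PlaB- needed both diffTBLC libraries. This comparison shares its diffTBLC libraries with the one before, so the 296 regions called in both (71 up and 225 down) are no independent repeat. They make up 60.3% of the calls against TBLC_Ctrl and 65.6% of those against TBLC_PlaB-.

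Some regions stood out against TBLC_PlaB- more than against TBLC_Ctrl. At chrX:36360606-36360811(-) the scores were 352 and 141 in TBLC_Ctrl, 38 and 32 in TBLC_PlaB-, and 234 and 310 in diffTBLC. TBLC_PlaB- was lowest there and the raw diffTBLC scores lay within the range of TBLC_Ctrl. The log2 difference from TBLC_PlaB- was 3.50 ± 0.60 with a limma adjusted p of 0.0044. The reverse was seen at chr7:103067682-103068279(+), with 142 and 142 in TBLC_Ctrl, 516 and 479 in TBLC_PlaB-, and 28 and 65 in diffTBLC. Its log2 difference between diffTBLC and TBLC_PlaB- was -2.99 ± 0.57 with a limma adjusted p of 0.0071, and TBLC_PlaB- did not pass against TBLC_Ctrl (log2 difference 1.84, limma adjusted p = 0.417).

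Several other large differences from TBLC_PlaB- depended on single libraries. At chr1:127856124-127856647(+) the TBLC_PlaB- scores were 21 and 189, and diffTBLC had 415 and 691. At chr7:80743313-80743816(+) the TBLC_PlaB- scores were 35 and 21 and the TBLC_Ctrl scores 177 and 61, and diffTBLC had 128 and 274. At chr8:129959131-129959435(-) they were 81 and 22, and diffTBLC had 297 and 243. Each of these 3 calls was lost without diffTBLC replicate 2 (limma adjusted p = 0.129, 0.143 and 0.099). The last was also lost without diffTBLC replicate 1 or TBLC_PlaB- replicate 2 (limma adjusted p = 0.12 and 0.079), and the first in limma without the trend (0.058). At chr3:94940148-94940372(-) the TBLC_Ctrl replicates were split, 826 and 116, whereas TBLC_PlaB- had 897 and 831 and diffTBLC 75 and 46. This call against TBLC_PlaB- was also lost without diffTBLC replicate 2 or TBLC_PlaB- replicate 1 (limma adjusted p = 0.065 and 0.056). On chromosome Y, chrY:90822367-90824094(+), which overlaps a region of the other strand, had 628 and 502 in TBLC_Ctrl, 570 and 369 in TBLC_PlaB-, and 64 and 26 in diffTBLC.

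Of the 5 shared regions on chromosome Y, 3 fell in diffTBLC against TBLC_Ctrl and none rose. On the X chromosome 15 of 78 passed (19.2%), 6 up and 9 down, and on the autosomes between 7.59% (chromosome 12) and 15.8% (chromosome 14) passed. No chromosome was tested against the others.

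Most shared regions held a stretch covered in all libraries. In 3917 of them (97.1%) at least 1 base lay under a peak of every list, and this common stretch had a median length of 222 bases (quartiles 151 and 336), a median 45.1% of the region's width. In the other 116 regions the lists were joined through peaks that do not all meet. The widest shared region, chr3:87883320-87885914(+), spanned 2595 bases and 15 peaks, with scores of 290 to 658. The region with the most peaks, chr7:28910801-28913118(-), held 19 in 2318 bases, 3 or 4 in each TBLC library and 2 in each diffTBLC library.

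Peaks of diffTBLC were also placed differently within the same regions. Among the 3154 regions with 1 peak per library, the centres of replicate peaks lay a median 14 to 15.8 bases apart, and those of TBLC_PlaB- and TBLC_Ctrl peaks 16 to 17. The centres of diffTBLC peaks lay 40.5 to 45 bases from those of TBLC_Ctrl. They were over 100 bases apart in 21.2% to 22.7% of regions, against 7.13% to 11.5% between replicates. Peaks of diffTBLC were narrower, with a median width of 311 and 323 bases against 340 to 366 in TBLC libraries.

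A direction along the strand was seen mainly at the upstream edge, and the centres leaned little. Centres of diffTBLC peaks lay a median 2.5 to 9.5 bases downstream of those in TBLC libraries. They lay downstream in 52.3% to 59.6% of regions and upstream in 39.9% to 47.1%. The upstream edge of the diffTBLC peak lay downstream of the TBLC edge by a median of 8 to 11.5 bases in all 8 pairs of a diffTBLC and a TBLC library, and in 62.3% to 67.7% of regions. Between replicates, and between TBLC_PlaB- and TBLC_Ctrl, the median shift of this edge was 0 to 1 bases. The downstream edge moved by -2 to 5 bases in the same 8 pairs, where replicates gave 0 to 3. The 8 pairs share 6 libraries, so they are not independent. Where diffTBLC and TBLC_Ctrl scores were within 0.25 on the log2 scale (515 regions), the upstream edge still lay 7 to 11 bases downstream, and the downstream edge moved by -4 to 4. Median distance between diffTBLC and TBLC_Ctrl centres was 63.8 bases in 158 regions that rose, 31.5 in 245 that fell and 50 in 2751 that did not pass. Between TBLC_PlaB- and TBLC_Ctrl centres it was 26.25, 11.5 and 25 bases in the same sets. The order of the sets was thus the same there, and is not particular to diffTBLC. No test was made of these distances.

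**Figure D4:**
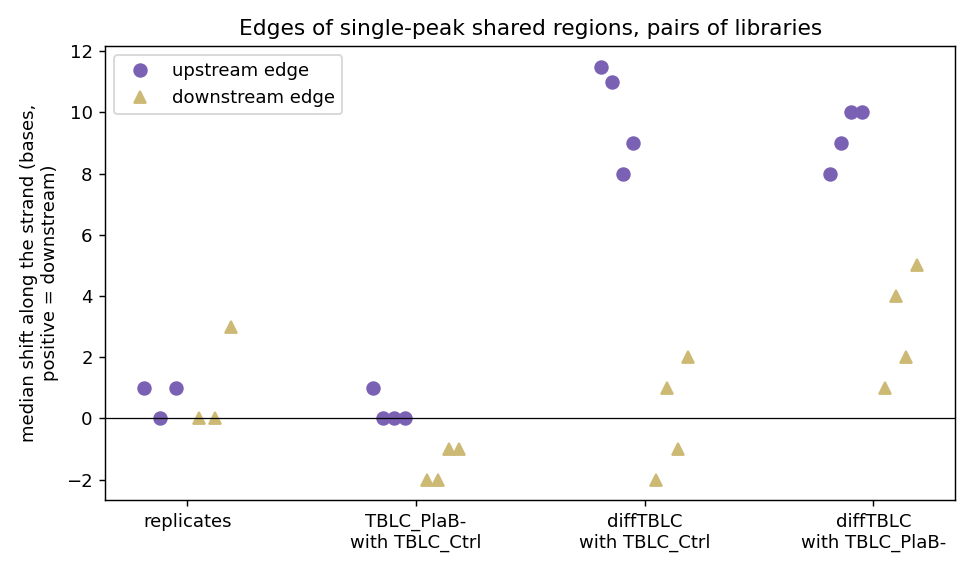
Median shift of the upstream edge (circles) and downstream edge (triangles) of peaks between pairs of libraries, in bases along the strand, over the 3154 shared regions with 1 peak per library. Each point is a pair of libraries. Upstream edges in diffTBLC lie 8 to 11.5 bases downstream of those in TBLC libraries, and those of replicates 0 to 1.

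Shared regions came singly for the most part, with some in runs. The median gap to the next shared region on the strand was 281444 bases, and 848 regions (21.0%) lay within 5000 bases of another. These formed 378 runs, of which 63 had 3 or more regions. The longest held 6 regions each, at chr4:141195263-141206759(-) with 51 peaks in 11497 bases and at chr7:135291564-135302744(-) with 42 peaks in 11181 bases. Changes of neighbours between diffTBLC and TBLC_Ctrl were only weakly alike, with Pearson's r of 0.13 for 268 pairs of adjacent regions under 1000 bases apart, 0.16 for 202 pairs at 1000 to 5000 bases and 0.01 for 1347 pairs at 50000 to 500000 bases. Close neighbours can lie on 1 transcript and share its level. Of the shared regions, 546 (13.5%) overlapped a region of the other strand, and of the other merged regions 5.21% did, a difference that was not tested. These 546 were wider (median 617.5 against 533 bases) and had higher scores (285 against 222) than the remaining shared regions, and a wider region has more chance to overlap.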

How the data were processed

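Each deposited list gives the peaks of 1 library with a strand and a score, which the authors deposited as whole numbers. The peak caller, the scale of the score and the depth behind it are not given in the sources used here. The submitters' processing notes name, without roles, build mm39, DESeq2, Subread, the aligner STAR 2.7.11b, Trim Galore and FastQC 0.12.1. From the lists, same-strand peaks were merged at 1 base of overlap, and each library's highest score in a region was put on a log2 scale and centred on its median over shared regions. State means of all 6 libraries were fitted in limma 3.58.1 (R 4.3.3) with a mean-variance trend, and scores were not filtered. In a test on simulated data for diffTBLC against TBLC_Ctrl (4530 regions, 200 changed), 0%, 35.5% and 86.5% of changes of 1, 2 and 3 on the log2 scale were recovered. False calls made up 0%, 1.39% and 3.89% of the calls. All changed regions of a run had the same size of change. In the data 491 shared regions of mixed size passed, the smallest change being 0.876. The recovered shares therefore do not carry over to the data.

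The regions and lists were chosen with earlier results of these data known. Regions are named by rule: the 4 highest mean scores, the 4 smallest spreads, the widest, the most peaks, the 3 just inside and outside the rule, and per comparison the 6 largest called rises and falls (3 by statistic where fewer than 3 passed). Called rises and falls were ranked only where the centred scores of the compared states do not overlap. Gene names, motifs and sequences were not analysed here, since no mm39 genome or annotation was used, and neither were inputs and gene counts.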

Additional observations from a re-analysis of the deposited data

How the results depend on the processing

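Having 2 replicates per state, with unknown depth and a score of unstated scale, limits every comparison. The shared set of 4033 regions was 1072 when only the 5000 highest peaks of each list were used, 4192 to 4418 when any single list was left out, and 3487 to 4029 under the other alternatives. Of these, requiring a base common to all 6 lists and leaving out overlaps with the other strand were chosen after seeing the data.

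For TBLC_PlaB- against TBLC_Ctrl the 3 calls became 0 in limma without the trend and 1 without overlaps with the other strand. Without the trend, 319 of 4033 shared regions had an unadjusted p under 0.05 by limma. This includes regions that would pass without any change, and the share over all regions tested is not given here, so it is no count of changes. With a library left out, calls were lost and in some cases other regions were called. For diffTBLC against TBLC_Ctrl the 491 calls became 961 without centring, 212 in limma without the trend and 204 to 439 with a library left out. For diffTBLC against TBLC_PlaB- the 451 calls became 917 without centring, 230 in limma without the trend and 224 to 464 with a library left out. A lone library was then assumed to vary like the other states, and the cause of these shifts was not tested. The calls were also not all the same regions. Of the 961 and 917 calls without centring, 392 and 372 were called with it too. The median uncentred differences ranged from -0.094 to 0.014, -0.68 to -0.55 and -0.63 to -0.51 in the same order when a library was left out. No named region changed direction.

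The replicate differences of any 2 states correlated at 0.0052 to 0.015 over 4033 regions, so no pairing by replicate number was seen region by region. This cannot show that the libraries were not made in pairs, and the labels do not say. The median score of replicate 1 was above that of replicate 2 in every state. With the replicate block the calls were 10, 566 and 570 in the order of the comparisons above.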
